A study of Mus musculus with 6 samples.

Results

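Regions of the mouse genome that carried peaks of both Tgif1 and Tgif2, and no peak of Hdac1, Nanog or Smad3, are described here. They were found by merging all peaks of the 5 lists that overlapped by at least 1 bp on chromosomes 1 to 19 and keeping the merged regions with that combination. The regions were thus chosen by the peak calls themselves, so their composition is not a finding. This gave 2788 regions of 32551 in all, or 8.57% (95% Wilson interval 8.27 to 8.87). They held 2818 of the 16273 Tgif1 peaks on these chromosomes, or 17.3%, and 2833 of the 18976 Tgif2 peaks, or 14.9%.

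ChIP-seq, in which DNA bound by a protein is pulled down and sequenced, was the source of the peaks. The cells were mouse embryonic stem cells of the J1 line, kept in serum with leukemia inhibitory factor. All cells, those of the mock library included, carried BirA, the bacterial biotin ligase. Tgif1, Hdac1 and Smad3 were each pulled down with an antibody to the protein, whereas the Tgif2 and Nanog libraries were made with streptavidin beads, which catch biotinylated protein. Every factor had 1 library from 1 line of cells, so no value below has a replicate check, and the intervals cover only the counting of peaks or regions. The sixth sample, the BirA mock precipitation, was not analysed here, so no control level stands beside the values.

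Tgif1 and Tgif2 are homeodomain proteins of the TALE class that act mainly as transcriptional repressors. They bind DNA directly through the homeodomain and can also be brought to chromatin by Smad2 and Smad3, where they limit transcription downstream of TGF-beta, Activin and Nodal. Both can recruit histone deacetylases. From work on the human proteins, Tgif1 also binds the corepressor CtBP, and Tgif2 lacks that contact. Hdac1 is the catalytic subunit of several such corepressor complexes, Nanog is a homeodomain factor that maintains pluripotency, and Smad3 carries Activin and TGF-beta signals to DNA.

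The regions were a minority of the places that the paralogs shared. Of the 12380 regions with peaks of both Tgif1 and Tgif2, 22.5% (21.8 to 23.3) held no peak of another factor. By comparison 72.2% carried Hdac1, 37.8% carried Nanog and 5.65% carried Smad3, alone or in combination. The closest class in composition, Tgif1 with Tgif2 and Hdac1 only, had 4895 regions. Tgif1 stood alone in 1462 regions and Tgif2 alone in 3372. An absent peak means that the authors' peak caller listed none there: the weakest listed Hdac1 peak still held 28 tags (sequenced fragments counted in the peak), the weakest Nanog peak 16 and the weakest Smad3 peak 11, and signal below those levels cannot be seen in the lists.

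Most of the regions were simple. A single Tgif1 peak met a single Tgif2 peak in 2721 of the 2788, or 97.6%. In 37 regions 1 Tgif1 peak spanned 2 Tgif2 peaks, and in 23 regions the reverse held. The median merged region was 1098 bp wide (1078 to 1121), against 1382 bp for regions that also held Hdac1, 844 bp for Tgif1 alone and 796 bp for Tgif2 alone. Merging more peaks makes a region wider by construction. Only 173 regions exceeded 2 kb and 21 exceeded 3 kb.

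Few regions lay at the edge of the rule. Just inside it, 19 of the regions had an Hdac1 peak within 100 bp without touching it, the nearest at 3 bp, and 9 had a Nanog peak within 100 bp, the nearest at 30 bp. Those 19 had median enrichments of 14.2-fold for Tgif1 and 12.4-fold for Tgif2. Just outside it, the smallest overlap by which an Hdac1 peak removed a region from the class was 77 bp, followed by 119 bp, and 2 of the 4895 regions with Hdac1 overlapped by 200 bp or less, whereas 50 of the Tgif1 and Tgif2 only regions had an Hdac1 gap of 200 bp or less. The limit of 200 bp was chosen after the values were seen. For Nanog, 3 regions were removed by an overlap of 13 to 37 bp, with median enrichments of 12.9-fold for Tgif1 and 7.67-fold for Tgif2. At the limit of 200 bp the contrast was smaller for Nanog. An overlap of 200 bp or less was found in 9 of the 627 regions with Tgif1, Tgif2 and Nanog only, and a Nanog gap of 200 bp or less in 19 of the Tgif1 and Tgif2 only regions. On the side of the paralogs themselves, the smallest overlap of a Tgif1 with a Tgif2 peak was 8 bp, and 3 regions rested on 50 bp or less. Conversely, 16 regions with Tgif1 alone lay within 100 bp of a Tgif2 peak.

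The Tgif1 peaks of these regions were of middling strength. Strength was read in 2 ways from the authors' lists, as fold enrichment over the background used by their peak caller and as the number of tags in the peak. Because the choice of the regions used the same peak calls, the values below are a description with no test. The median Tgif1 peak was enriched 12.2-fold (11.9 to 12.5), with values from 4.38-fold to 154-fold and an interquartile range of 9.03-fold to 18.2-fold. The Tgif1 peaks elsewhere in the list had a median of 13.6-fold. By tags the Tgif1 median was 51 in these regions, against 55 in the rest of the list.

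The Tgif2 peaks gave a similar picture by fold and a different one by tags. Their median enrichment was 13.4-fold (13.0 to 13.8), ranging from 4.41-fold to 215-fold, against 14.3-fold for Tgif2 peaks elsewhere. Their median tag number was 60, above the 57 of the rest of the Tgif2 list. Placed within the whole deposited list, the median Tgif1 peak stood at the 43.2 percentile by fold and the 45.6 percentile by tags, and the median Tgif2 peak at the 46.2 percentile by fold and the 53.4 percentile by tags. The place of Tgif2 by fold depended on how peaks were joined: with summits within 200 bp its median was 14.9-fold, at the 54.0 percentile and above the list median of 14.1-fold.

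Set against regions that also held Hdac1, both paralogs were weaker on both measures. The Tgif1 median was 12.2-fold and 51 tags in the Tgif1 and Tgif2 only regions, against 14.1-fold and 61 tags in the regions with Hdac1. The Tgif2 median was 13.4-fold and 60 tags in the Tgif1 and Tgif2 only regions, against 15.9-fold and 72 tags in those with Hdac1. Regions with a single paralog held the fewest tags, with a median of 39 for Tgif1 alone and 43 for Tgif2 alone. The shared regions without Hdac1 thus lay between the solitary peaks and the peaks shared with Hdac1. Their distributions overlapped widely, since the interquartile range of Tgif1 tags ran from 39 to 72 in the Tgif1 and Tgif2 only regions and from 45 to 86 in the regions with Hdac1. The difference in median tags, -10 for Tgif1 and -12 for Tgif2, was -3 and -4 when the weaker peaks of each list, those below its median fold, were left out, and -4 and -5 when peaks were joined by summits within 200 bp.

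Counts in the quintiles of each list showed the same shape. Of the 2788 regions, 482 had a Tgif1 peak in the strongest quintile of its list by fold, or 17.3%, where 20.6% of all regions with Tgif1 did. The Tgif1 peak was in the weakest quintile in 710, or 25.5%, where 19.6% of all regions with Tgif1 were. For Tgif2 by fold, 563 regions or 20.2% were in the strongest quintile, where 20.5% of all regions with Tgif2 were, and 688 or 24.7% in the weakest, where 19.4% were. Ranked by tags, 429 Tgif1 peaks or 15.4% were in the strongest quintile, where 20.3% of all regions with Tgif1 were, and 498 Tgif2 peaks or 17.9%, where 20% of all regions with Tgif2 were. At the weak end by tags, 575 Tgif1 peaks or 20.6% were in the weakest quintile, where 19.5% of all regions with Tgif1 were, and 421 Tgif2 peaks or 15.1%, where 20.1% of all regions with Tgif2 were. Weak peaks were thus over-represented by fold for both paralogs, while by tags the Tgif1 share lay near the background and the Tgif2 share below it. Of the 100 Tgif1 peaks with the highest fold on chromosomes 1 to 19, 14 lay in these regions, as did 23 of the leading 100 Tgif2 peaks. By tags the numbers were 11 for Tgif1 and 2 for Tgif2. Over the whole lists on the same chromosomes, these regions held 17.3% of Tgif1 peaks and 14.9% of Tgif2 peaks.

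Shared sites weaker by fold or tags were more often free of the other factors. So were those with narrower peaks, which the overlap rule itself favours. When the 12380 regions with both paralogs were ranked by Tgif1 fold and cut into 5 bins of 2476, the share without another factor was 33.2% (31.3 to 35.04) in the weakest bin, 24.3% in the next, then 19.5% and 18.2%, and 17.5% (16.04 to 19.03) in the strongest. Ranked by Tgif1 tags it was 32.1%, 26.3%, 22.4%, 17.4% and 14.4% from the weakest to the strongest bin. Ranked by Tgif1 width it was 27.9% in the narrowest bin and 17.7% in the widest. A wider peak can touch more neighbouring peaks under the 1 bp rule, so the series by width is in part set by construction. The series by tags was not separated from width, whose part in it was not tested. Hdac1 was present in 59.1% of regions in the weakest bin by tags and 81.7% in the strongest. Nanog was present in 34.1% of the weakest bin by Tgif1 tags and 45.8% of the strongest. Ranked by Tgif2 its share showed no such series, at 36.3% in the weakest and 35.5% in the strongest bin by fold, and at 39.3%, 36.2%, 35.7%, 36.2% and 41.6% from the weakest to the strongest bin by tags.

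For the share of regions without another factor, ranking by Tgif2 gave a similar series with 1 exception. By Tgif2 tags the share of regions without another factor was 30.1% in the weakest bin and 13.5% in the strongest, lower at each step. By Tgif2 width it was 29.0% in the narrowest bin and 15.3% in the widest, again in part by construction. By Tgif2 fold it was 32.3% in the weakest bin, 18.2% (16.7 to 19.8) in the fourth and 20.5% (18.9 to 22.1) in the strongest. The intervals of these last bins overlapped, and the order between them was not tested.

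**Figure D1:**
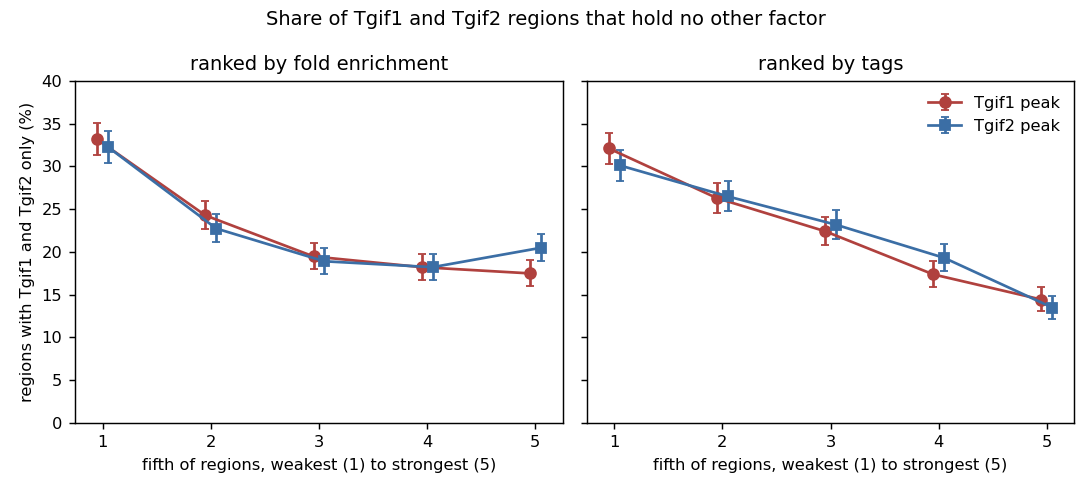
Percent of regions with both Tgif1 and Tgif2 that hold no Hdac1, Nanog or Smad3 peak, by quintiles of the 12380 regions ranked by fold enrichment (left) or tags (right) of the Tgif1 peak (red circles) and the Tgif2 peak (blue squares); bars are 95% Wilson intervals. The share is 30.1% to 33.2% in the weakest quintile and 13.5% to 20.5% in the strongest; by Tgif2 fold the last point, 20.5%, lies above the fourth, 18.2%, with overlapping intervals.

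The share without other factors was low where fold and tags were both high. Among regions whose Tgif1 peak was at or above the median of its list on both measures, 494 of 4207, or 11.7% (10.8 to 12.8), held Tgif1 and Tgif2 only. With a high fold and few tags the share was 28.6% of 2502 regions, with a low fold and many tags 26.7% of 2978, and with both low 29.1% of 2693. The intervals of the last 3 shares overlapped.

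The 2 measures were also almost unrelated within the regions. Across the 2788 regions the Spearman correlation of Tgif1 fold with Tgif1 tags was -0.12, compared with 0.28 across the 4895 regions with Hdac1 and 0.21 across the 662 regions with all 5 factors. For Tgif2 it was 0.03 in the Tgif1 and Tgif2 only regions, against 0.34 with Hdac1 and 0.21 with all 5. Tags followed peak width (0.76 for Tgif1 and 0.70 for Tgif2), and fold went against it (-0.36 and -0.34), whereas with Hdac1 fold was nearly independent of width (-0.09 and -0.04). Among the 27 regions with the most Tgif1 tags, the highest 1%, 18 had a Tgif1 fold below the median of the regions, and their median Tgif1 peak was 2540 bp wide. Relative to the medians of the Tgif1 list, 795 of the regions combined a low fold with many tags, and 715 a high fold with few tags. These correlations are across regions of the same libraries and carry no test.

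The paralogs tracked each other from region to region. Across the 2788 regions Tgif1 fold and Tgif2 fold had a Spearman correlation of 0.71, and tags one of 0.58. The corresponding values were 0.70 and 0.62 with Hdac1, and 0.76 and 0.70 with all 5 factors. The tracking was therefore not particular to this class. The Tgif1 and Tgif2 peaks fell in the same quintile of their lists by fold in 1217 regions, or 43.7%, and 1 quintile apart in 1086, or 39.0%. In 347 regions both were in the strongest quintile, and in 385 both were in the weakest. Opposite extremes were rare: 10 regions had a Tgif1 peak in the strongest quintile with a Tgif2 peak in the weakest, and 8 had the reverse. These quintile counts cover the Tgif1 and Tgif2 only regions alone and have no share over all shared regions beside them. The widths of the paralogs' peaks also went together (0.59), and the part of width in the relation of the folds was not tested.

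**Figure D2:**
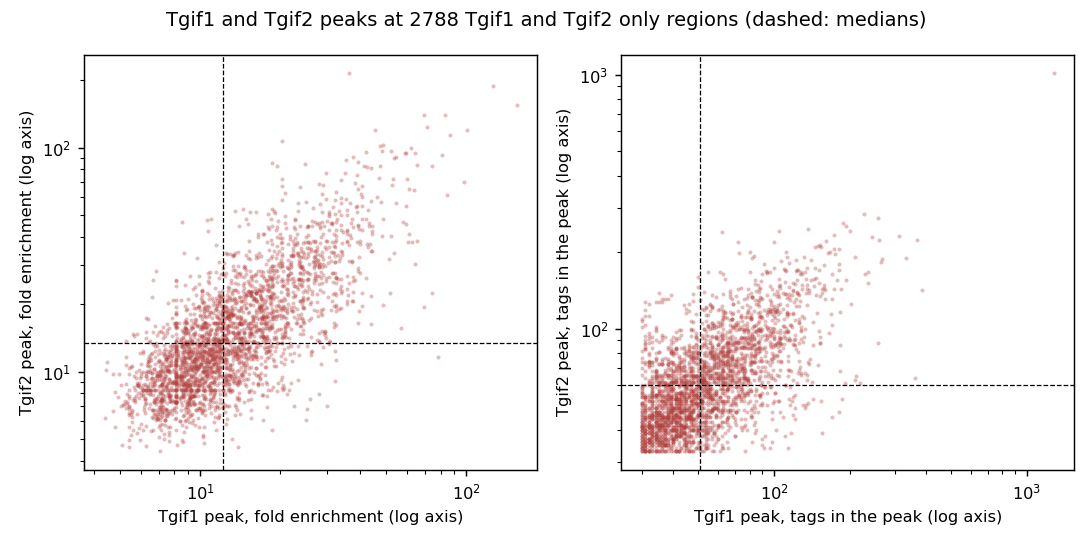
Tgif1 value (horizontal) against Tgif2 value (vertical) at each of the 2788 Tgif1 and Tgif2 only regions, as fold enrichment (left) and tags in the peak (right), on log axes; dashed lines mark the medians of 12.2-fold and 13.4-fold, and of 51 and 60 tags. The fold values lie along a diagonal band, the tag values end sharply at the lowest listed 30 and 33 tags, and 1 region stands far from the rest with 1277 Tgif1 and 1011 Tgif2 tags.

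Of the 10 regions that led by Tgif1 fold, 8 were also strong for Tgif2 by fold. The highest, chr2:165064882-165065595 in mm9 coordinates, had a 154-fold Tgif1 peak with 101 tags and a 155-fold Tgif2 peak with 116 tags. These ranked 5 of 16400 and 16 of 19129 by fold in their lists. The next, chr6:31256880-31257485, had 125-fold and 86 tags for Tgif1 and 188-fold and 130 tags for Tgif2. The Tgif1 and Tgif2 summits lay 15 bp apart on chromosome 2 and 11 bp apart on chromosome 6. The nearest Hdac1 peaks were 23255 bp and 10941 bp away, so neither place was a near miss for Hdac1.

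The third by Tgif1 fold, chr5:90310876-90312213, was enriched 100-fold for Tgif1 and 120-fold for Tgif2. It was the most isolated of the leading places, with the nearest Hdac1 peak 481726 bp away and the nearest Nanog peak 206893 bp away. The next was chr12:110232779-110233347, with 98.3-fold for Tgif1 and 70.6-fold for Tgif2, and both summits at the same base. It was followed by chr4:57333482-57334141 (86.4-fold for Tgif1 and 114-fold for Tgif2), where the summits lay 1 bp apart. The sixth to the eighth were chr5:93268137-93268762, chr11:61162681-61163345 and chr8:120197217-120197944, with Tgif1 enrichments between 81.3-fold and 84.5-fold. All 8 of these had a Tgif2 peak at or above the 98.4 percentile of its list by fold. By tags the Tgif2 peaks at chr12:110232779-110233347 and chr5:93268137-93268762 stood lower, with 51 tags each, at the 40.6 percentile. The other Tgif2 peaks of this group lay between the 74.3 and the 95.9 percentile by tags.

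The last of the 10 were different in balance. At chr5:121995411-121996370 the Tgif1 peak reached 78.0-fold with 219 tags, while the Tgif2 peak had 11.6-fold and 61 tags, at the 34.8 percentile of the Tgif2 list by fold. At chr5:101274353-101275556 Tgif1 had 74.5-fold and 102 tags, and Tgif2 had 22.4-fold and 40 tags. The opposite imbalance headed the ranking by Tgif2 fold. There chr3:88276617-88277560 had a 215-fold Tgif2 peak with 240 tags, ranked 6 in the Tgif2 list, and a 36.2-fold Tgif1 peak with 62 tags, ranked 752 in the Tgif1 list. The Tgif2 peaks that followed by fold were those at chr6:31256880-31257485, chr2:165064882-165065595, chr11:61162681-61163345 and chr8:75843382-75843726. The last of these was also the narrowest of all the regions, at 344 bp, with 139-fold for Tgif2 and 69.5-fold for Tgif1.

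By the mean of the within-list percentiles of both paralogs, the order was chr6:31256880-31257485, chr2:165064882-165065595, chr5:90310876-90312213, chr11:61162681-61163345 and chr4:57333482-57334141. All 5 were already among the 10 by Tgif1 fold. Their tags were between 63 and 105 for Tgif1 and between 88 and 157 for Tgif2, at the 61.1 to 87.7 and the 78.3 to 95.9 percentiles of the lists. The 5 regions with the most Tgif1 tags were other places.

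The region with the most Tgif1 tags, chr8:19981528-19986688, stood far from the rest. Its Tgif1 peak of 5160 bp held 1277 tags and its Tgif2 peak of 4434 bp held 1011, ranks 3 and 2 in the 2 lists by tags. The enrichments were 39.9-fold and 27.7-fold, and the summits lay 1 bp apart. It was the widest region as well as the one with the most tags. A region on its left, chr8:19702502-19706398, held 368 Tgif1 and 223 Tgif2 tags at 10.4-fold and 11.8-fold.

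The other leaders by Tgif1 tags ranged widely in enrichment. At chr6:125110233-125113183 the Tgif1 peak held 386 tags at 8.01-fold and the Tgif2 peak 142 tags at 7.40-fold. On chromosome 19, chr19:61299688-61304836 held 361 Tgif1 tags at 20.1-fold, and its strongest Tgif2 peak, of 2, held 64 tags at 18.0-fold. Also on chromosome 19, chr19:61275270-61276118 held 332 Tgif1 tags at 29.3-fold, the 91.2 percentile of the list, and 190 Tgif2 tags at 14.5-fold. The pairs on chromosomes 8 and 19 were also far from Nanog peaks, between 784246 bp and 1063272 bp. Hdac1 peaks were nearer, at 2443 bp from chr8:19702502-19706398 and 117395 bp from chr8:19981528-19986688. For chr19:61275270-61276118 and chr19:61299688-61304836 the Hdac1 distances were 47325 bp and 71743 bp. The third in width, after chr8:19981528-19986688 and chr19:61299688-61304836, was chr17:28464666-28469412, with 258 Tgif1 tags at 8.47-fold and 88 Tgif2 tags at 8.26-fold.

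At the lower end, the smallest Tgif1 enrichments were 4.38-fold at chr10:128002681-128003796, 4.43-fold at chr2:37298122-37299212 and 4.47-fold at chr8:119779813-119781751. They were not the poorest in tags, with 76, 46 and 54 Tgif1 tags. The Tgif2 peaks there had 6.22-fold, 10.2-fold and 11.0-fold enrichment. No gene is named for any region, because no annotation of the mm9 build was used here, and no sequence is shown for the same reason.

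The summits of the paralogs lay close together inside the regions. The Tgif1 peak overlapped the Tgif2 peak by a median of 785 bp, and in 99.4% of regions they shared 50% or more of the shorter one. Some overlap is required by the rule. The values were 911 bp and 99.5% with Hdac1, and 863 bp and 99.4% with all 5 factors, so wide overlap was not particular to this class. The median distance from the Tgif1 summit to the nearest Tgif2 summit in the region was 38 bp (36 to 40), against 42 bp (40 to 44) with Hdac1 and 37 bp (32 to 41) with all 5 factors. Summits lay within 50 bp of each other in 1628 regions, or 58.4%, where 57.2% of all regions with both paralogs did, and within 200 bp in 79.6%, where 80.1% did. The closeness of the summits was therefore near that of shared peaks at large. In 194 regions, or 6.96%, they were more than 500 bp apart, against 8.74% with Hdac1 and 4.23% with all 5 factors.

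Neither paralog lay to one side. The Tgif1 summit was at the higher coordinate in 1440 regions, or 51.6% (49.8 to 53.5), against 49.5% with Hdac1 and 49.4% with all 5 factors. The median signed difference, Tgif1 minus Tgif2, was 2 bp. In 27 regions, or 0.968%, the summits shared 1 base, against 0.695% with Hdac1 and 0.755% with all 5 factors.

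Closeness of summits followed fold and width, and not tags. In the quintile of the regions with the lowest Tgif1 fold the median summit distance was 98 bp (77 to 123), and in the successive quintiles it was 48, 40, 31 and 19.5 bp. The share of regions with summits within 50 bp was 37.3% in the lowest quintile and 80.6% in the highest. By Tgif1 width the median distance was 21 bp in the narrowest quintile and 62 bp in the widest. By Tgif1 tags it stayed between 36 and 41 bp. Since the Tgif1 peaks of the lowest quintile by fold were also wider, with a median of 1111 bp against 738.5 bp in the highest, width and fold were not separated. Without the peaks below the median fold of their list, the median summit distance over the class was 24 bp.

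**Figure D3:**
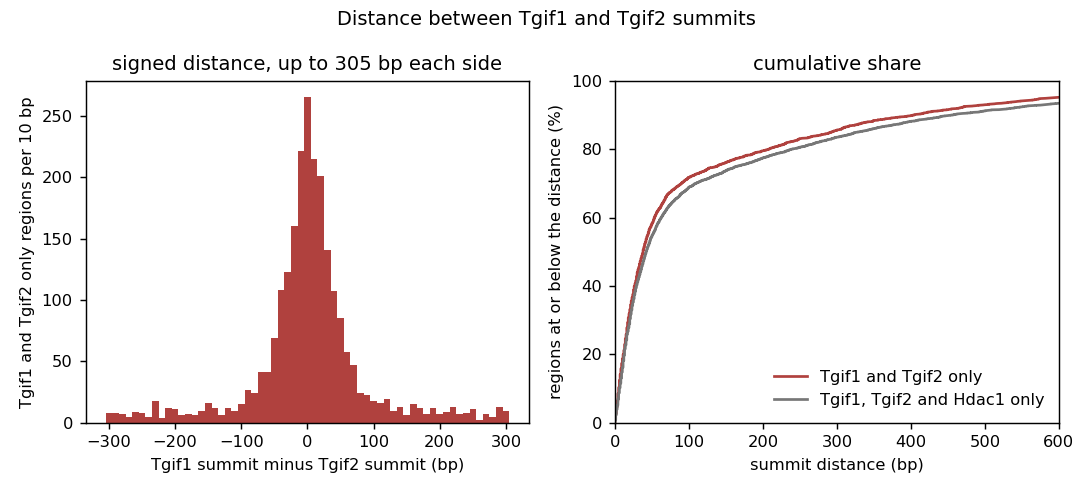
Left, number of Tgif1 and Tgif2 only regions by signed distance of the Tgif1 summit from the nearest Tgif2 summit, in bins of 10 bp; right, cumulative percent of regions by absolute distance, for the 2788 Tgif1 and Tgif2 only regions (red) and the 4895 regions with Tgif1, Tgif2 and Hdac1 only (grey). The left panel is centred near 0 without a shift to one side, and in the right panel the red curve runs slightly above the grey one, with medians of 38 and 42 bp.

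The regions were not concentrated beside peaks of the missing factors. The nearest Hdac1 peak lay a median of 20548.5 bp away (18919 to 22006), near the 21496 bp (20782 to 22167) over all regions without Hdac1. It lay 16251.5 bp (14898 to 17726) from regions with Tgif1 alone and 17657.5 bp (16146 to 18965) from those with Tgif2 alone. An Hdac1 peak lay within 1 kb of 167 regions, or 5.99% (5.17 to 6.93), where 8.01% of all regions without Hdac1 had one, against 9.51% (8.11 to 11.1) of Tgif1 alone and 9.37% (8.43 to 10.4) of Tgif2 alone. Within 10 kb the share was 33.3% (31.6 to 35.1), close to the 34.4% of all regions without Hdac1 and below the 39.3% (36.8 to 41.8) of Tgif1 alone and the 37.8% (36.2 to 39.5) of Tgif2 alone. These intervals count regions of 1 set of libraries and do not test the classes against each other. The share within 10 kb of Hdac1 was itself sensitive to the definition: it was 56.1% when peaks were joined by summits within 200 bp, which leaves overlapping Hdac1 peaks unjoined, and 21.3% without the peaks below the median fold of their list. That last setting also cuts the Hdac1 list, so fewer Hdac1 peaks were left to lie nearby.

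Nanog and Smad3 peaks were likewise not concentrated nearby. A Nanog peak lay within 1 kb of 127 regions, or 4.56% (3.84 to 5.39), where 6.04% of all regions without Nanog had one, against 6.91% of Tgif1 alone and 7.38% of Tgif2 alone. Within 10 kb it was 27.8% of the Tgif1 and Tgif2 only regions, where 30.4% of all regions without Nanog had one, against 33.7% of Tgif1 alone and 31.5% of Tgif2 alone. A Smad3 peak lay within 1 kb of 8 regions, or 0.287%, where 0.691% of all regions without Smad3 had one. It lay within 10 kb of 87 regions, or 3.12% (2.54 to 3.83), where 4.67% of all regions without Smad3 had one, against 3.08% (2.31 to 4.09) of Tgif1 alone and 4.06% (3.45 to 4.78) of Tgif2 alone. Without the peaks below the median fold of their list, the Nanog share within 10 kb was 15.3% and the Smad3 share 1.85%. The Nanog and Smad3 lists were cut in the same way, leaving fewer peaks to lie nearby. A total of 1616 regions, or 58.0%, had no peak of Hdac1, Nanog or Smad3 within 10 kb, and 245, or 8.79%, had none within 100 kb. These combined counts have no share over other regions beside them, so they do not show whether the class was isolated.

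Strength varied little with the distance to Hdac1. The median Tgif1 fold was 13.6 (11.8 to 14.5) in the 167 regions within 1 kb of an Hdac1 peak, 12.2 in the 761 regions between 1 and 10 kb, 11.9 in the 1425 regions between 10 and 100 kb and 12.2 (11.6 to 13.3) in the 435 regions beyond. The median Tgif2 tags were 55 (51 to 60) in the nearest group and 60 in each of the others. The intervals of the nearest and the farthest group overlapped on both measures.

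**Figure D4:**
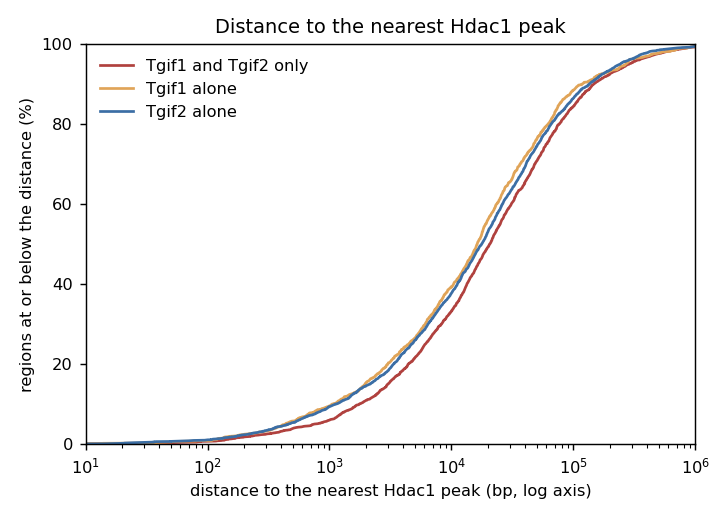
Cumulative percent of regions (vertical) by the distance from the region's edge to the nearest Hdac1 peak in bp (horizontal, log axis), for 2788 Tgif1 and Tgif2 only regions (red), 1462 regions with Tgif1 alone (orange) and 3372 with Tgif2 alone (blue). The red curve lies below the others over most of the range, with 33.3% of regions within 10 kb against 39.3% and 37.8%.

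Few of the regions lay close to another of the class. Another region of the class lay within 10 kb of 253 of them, or 9.07% (8.06 to 10.2). The share was 14.7% among regions with Hdac1, 12.8% for Tgif1 alone, 14.2% for Tgif2 alone and 13.1% with all 5 factors. Classes with more regions are denser, so these shares are not on equal terms. Their order at 10 kb did not follow class size alone, since Tgif1 alone, with 1462 regions, and all 5 factors, with 662, had higher shares than this class. The order against these 2 classes depended on the distance. Within 50 kb the share was 31.1% (29.4 to 32.9) of the Tgif1 and Tgif2 only regions, against 25.4% (23.2 to 27.7) of Tgif1 alone and 22.4% with all 5 factors. The median gap to the next region of the class was 117031.5 bp, against 191826 bp for Tgif1 alone. Joined across gaps of up to 10 kb, 2535 regions stood singly, 112 runs held 2, 7 runs held 3 and 2 runs held 4. Counting the nearest region of any class, 525 of the 2788 had a Tgif1, Tgif2 and Hdac1 only region as the nearest, or 18.8% (17.4 to 20.3), whereas over all regions the nearest was of that class in 14.4%. Another Tgif1 and Tgif2 only region was the nearest for 325, or 11.7% (10.5 to 12.9), whereas over all regions the nearest was of that class in 8.47%. Nanog alone was the nearest in 16.4% of the Tgif1 and Tgif2 only regions and in 21.4% over all regions. Single paralogs were also nearest more often, Tgif2 alone in 12.3% against 10.2% and Tgif1 alone in 5.81% against 4.65%. Regions with Tgif1, Tgif2, Hdac1 and Nanog were nearest in 9.22% against 10.8%, and Hdac1 alone in 5.06% against 5.76%.

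The largest runs were on chromosomes 17 and 7. The first run, of 4 regions, fell within 11968 bp at chr17:34041375-34053343, with Tgif1 folds of 5.98 to 11.0 and Tgif2 folds of 5.63 to 14.6, and 1 region with Tgif1 alone lay among them. The second, also of 4, fell within 22014 bp at chr7:148236833-148258847, with 4.71-fold to 19.4-fold for Tgif1, around 1 region that carried Tgif1, Tgif2, Hdac1 and Nanog. The most compact run of 3 spanned 3894 bp at chr19:8911539-8915433, with 12.0-fold to 19.7-fold for Tgif1, 8.26-fold to 21.3-fold for Tgif2 and no region of another class between. None of these runs contained a region among the leaders by fold.

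Chromosome 1 stood apart in the peaks of these regions. The 212 regions there had a median of 61.5 Tgif1 tags (56 to 66) and 81.5 Tgif2 tags (73 to 90), against 51 (49 to 52) and 58 (57 to 60) in the 2576 regions on the other autosomes. Enrichment went the other way, with medians of 9.89-fold for Tgif1 (9.11 to 10.5) and 11.8-fold for Tgif2 on chromosome 1, against 12.4-fold and 13.6-fold on the others. Peaks there were also wider, with a median of 1161.5 bp for Tgif2 on chromosome 1 against 931 bp. The same held in the regions with Hdac1, where Tgif2 had 94.5 tags on chromosome 1 and 71 on the others. On the remaining chromosomes the median Tgif2 tags of the Tgif1 and Tgif2 only regions ran from 51 on chromosome 18 to 64 on chromosome 8.

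By the share of shared sites without other factors, chromosome 1 did not stand apart. Of the regions with both paralogs, 22.2% (19.7 to 24.97) were of the Tgif1 and Tgif2 only class on chromosome 1, near the 22.5% overall. The lowest share was 20.04% (16.6 to 24.0) on chromosome 14 and the highest 28.0% (24.2 to 32.1) on chromosome 3. Chromosome 11 held the most regions, 237, or 9.04% of its 2623 merged regions. Chromosome 16 held the fewest, 70, or 7.41% of its 945, where the share over all chromosomes was 8.57%. The interval of chromosome 3 lay above those of chromosomes 2, 4, 5, 11 and 14.

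**Figure D5:**
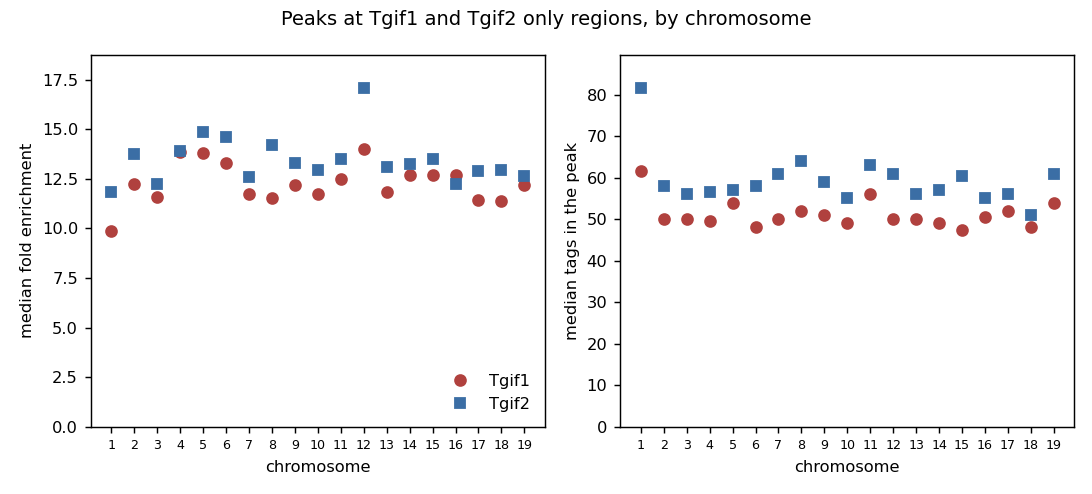
Median fold enrichment (left) and median tags (right) of the Tgif1 peaks (red circles) and Tgif2 peaks (blue squares) at Tgif1 and Tgif2 only regions, by chromosome. Chromosome 1 has the highest tags, 61.5 and 81.5, and the lowest fold, 9.89 and 11.8, of the 19 chromosomes.

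The class depended on the strength of peaks admitted to the lists. When peaks below the median fold of their list were left out, 2111 regions held Tgif1 and Tgif2 only, but 943 of them, or 44.7%, overlapped a region of the class as defined, and 33.8% of the 2788 were recovered. Joining peaks by summits within 200 bp gave 3479 regions, of which 64.1% overlapped the class. When joined peaks had to share 50% or more of the shorter one, 2851 regions resulted, and 97.4% overlapped the class.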

How the data were processed

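Peak lists of 5 ChIP-seq libraries were used, 1 per factor. Per the submitters' processing notes, reads were aligned with BWA 0.5.9-r16 to mm9 and MACS was used; settings, control library and threshold are not given in the sources used here, nor is library depth. The deposited lists have no header. From the values, column 4 was read as fold enrichment, a ratio made by the authors' caller, and column 5 as the deposited count of tags per peak; start, end and summit are positions on mm9, printed as deposited, with the base from which starts count uncertain by 1 bp. Fold and tags were used only within a list. A paralog with several peaks in a region was represented by the one of highest fold.

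Merging, distances and shares were computed with Python 3.11.15, NumPy 2.4.6, pandas 2.3.3 and SciPy 1.17.1; figures with matplotlib 3.10.9. Shares carry 95% Wilson intervals, medians 95% order-statistic intervals, both for counting error only. Region counts were checked against bedtools 2.31.1 (difference 0), and on simulated lists 500 of 500 planted regions were recovered. No test was made: the factors have 1 library each and the regions were chosen from these peak calls. The class, the measures and the alternatives were chosen with earlier results of these data known. Regions named are the 10 highest by Tgif1 fold, 5 by Tgif2 fold, 5 by mean percentile and 5 by Tgif1 tags, the 3 widest, the 3 lowest by Tgif1 fold and the 3 largest runs, the third being the shortest of those with 3 regions. Sequence and gene position were planned but not run, since the reference tables are of GRCm38.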

Additional observations from a re-analysis of the deposited data

Results flagged for a closer look

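Regions of the same combination also occurred outside chromosomes 1 to 19, in data that the report does not use. On chromosome X, 38 of 428 merged regions held Tgif1 and Tgif2 only, or 8.88% (6.54 to 12.0), against 8.57% on the autosomes. Of the 64 regions with both paralogs there they made up 59.4% (47.1 to 70.5), against 22.5% on the autosomes. On unplaced and Y contigs 5 of 173 merged regions were of this kind, or 2.89% (1.24 to 6.59), out of 13 with both paralogs. No control library was analysed here against which these could be set.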

How the results depend on the processing

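The number of regions ranged from 2111 to 3479 over the alternatives: it was 2851 where joined peaks had to share 50% or more of the shorter one, 2792 without the Smad3 list, 2826 with chromosome X, 2547 with no other factor within 1 kb, and, added after seeing the data, 2788 with touching peaks merged, 2576 without chromosome 1 and 2794 without the 1% of peaks highest in tags. Over the main results and all alternatives, 61 values stayed within the interval of the reported one (counts of regions within 1.5 times) and 33 moved; the medians of both paralogs stayed below those with Hdac1 in all 9 alternatives where this was run, but the Tgif2 median fold lay above the median of its list with joining by summits (percentile 54.0), and both paralogs' did, by construction, without the peaks below the median fold. With peaks joined by summits within 200 bp, the Tgif1 and Tgif2 median folds were 13.2 and 14.9, their percentiles 49.2 and 54.0, the summit distance 27 bp, and the shares within 10 kb of Hdac1, Nanog and another region of the class 56.1%, 35.6% and 12.0%. With each peak redrawn as 250 bp to either side of its summit these were 12.5 and 14.0, 45.0 and 49.3, 33 bp, and 43.6%, 31.4% and 10.5%. Without the peaks below the median fold they were 19.97 and 22.3, 76.3 and 78.3, 24 bp, and 21.3%, 15.3% and 5.78%, higher folds following from the threshold itself. The threshold also left fewer peaks and regions to lie within 10 kb. Merging across gaps of up to 500 bp gave 29.7%, 24.9% and 6.95% for the 3 shares. Ranking by tags gave percentiles of 45.6 and 53.4, midpoints in place of summits 79.5 bp, a limit of 5 kb 21.4% for Hdac1 and 17.7% for Nanog, and a limit of 50 kb 31.1% for another region of the class. Apart from what each construction sets, the cause of these shifts was not tested. Sequence windows and distance to gene starts were planned and not run. No paired analysis was possible because each factor has 1 library and no result comes from a test. Depth limits which weak peaks were listed, and library totals were not used here.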

Other observations

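Chromosome 1 had the highest median tags in each of the 5 whole lists, not only in regions with the Tgif paralogs. The median on chromosome 1 was 62 tags for Tgif1, against 50.5 to 57 on the other autosomes, and 67 for Tgif2, against 52.5 to 60. For Hdac1 it was 54, against 44 to 49, for Nanog 32, against 27 to 31, and for Smad3 37, over 79 peaks, against 21 to 32. The median fold on chromosome 1 was below that of every other autosome in all 5 lists, for example 11.4-fold for Tgif1 against 12.9-fold to 14.2-fold, and 20.1-fold for Nanog against 21.9-fold to 26.2-fold.

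Fold enrichment took a limited set of values. The 2788 Tgif1 and Tgif2 only regions had 1234 different Tgif1 folds and 1313 different Tgif2 folds. The most frequent were 8.13-fold for Tgif1, in 85 regions, and 8.26-fold for Tgif2, in 71. The next were 12.2-fold and 16.26-fold for Tgif1, and 16.53-fold and 12.4-fold for Tgif2.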
